A study of Mus musculus with 10 samples.

Results

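Ncam2, Ncam1, St8sia2 and St8sia4 were followed in the hippocampus of Dp3Yah mice and control littermates. They were chosen by name, as the pair of neural cell adhesion molecule genes and the pair of enzyme genes that build polysialic acid, and the rule itself used no measured value. All 4 were measured among the 19938 genes of the arrays, each by 1 probe set that the platform annotation gave to that gene alone, so no member had a second probe set to show. The labels put 5 male mice in each group, all 16 weeks old and on a C57BL/6N background, with 1 array of total RNA from the whole hippocampus per mouse. The study's methods give C57BL/6J as the background of its lines, a difference that the sources used here do not settle. Dp3Yah mice carry the duplication Dp(16Hspa13-App)3Yah in every cell, with 3 copies of the chromosome 16 genes from Hspa13 to Gabpa against 2 in controls and only 2 complete copies of App. The interval holds part of the mouse homologue of human chromosome 21, and not all of it. The labels number the mice of each group as biological replicates, and which mice shared a litter is not given.

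NCAM1 and NCAM2 are cell surface proteins of the immunoglobulin superfamily that bind cells to one another and help to shape axons and synapses. NCAM1 is the main carrier of polysialic acid, a long chain of sialic acid residues that loosens its adhesion, while NCAM2, first described in the olfactory system, is not known as a carrier. In the adult hippocampus polysialic acid is best known on young granule neurons of the dentate gyrus and on mossy fibres. Its chains are made by the polysialyltransferases ST8SIA2, which dominates in the embryo, and ST8SIA4, which dominates later in life.

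Of the 4 genes Ncam2 alone lies in the duplicated interval, on chromosome 16 (81200697 to 81624290 of GRCm38.p6), a gene 423.6 kb long. Ncam1 lies on chromosome 9 (49502129 to 49799393), St8sia2 on chromosome 7 (73939119 to 74013727) and St8sia4 on chromosome 1 (95587682 to 95667717), and each is in 2 copies in both groups. Promoter windows from RefSeq GRCm38.p6 were matched for 3 of the members, Ncam2, St8sia2 and St8sia4. The 250 bases before the start site of each window are shown, so that the promoter in 3 copies can be set beside those of the enzymes in 2. For Ncam2 that site is the first base of the gene. For St8sia2 (74013682) and St8sia4 (95667594) it lies within the gene span given above, so 45 and 123 bases of their windows are inside that span. They are written 5′ to 3′ on the strand of the gene, with GC boxes (GGGCGG) and CCAAT boxes, on either strand, in capitals.
Ncam2, chr16:81200447-81200696, plus strand: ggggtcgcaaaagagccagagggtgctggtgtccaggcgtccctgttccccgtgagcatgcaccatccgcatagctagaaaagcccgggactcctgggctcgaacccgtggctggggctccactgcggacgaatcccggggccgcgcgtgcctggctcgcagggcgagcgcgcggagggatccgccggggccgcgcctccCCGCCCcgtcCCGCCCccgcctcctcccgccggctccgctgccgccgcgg
St8sia2, chr7:74013683-74013932, minus strand: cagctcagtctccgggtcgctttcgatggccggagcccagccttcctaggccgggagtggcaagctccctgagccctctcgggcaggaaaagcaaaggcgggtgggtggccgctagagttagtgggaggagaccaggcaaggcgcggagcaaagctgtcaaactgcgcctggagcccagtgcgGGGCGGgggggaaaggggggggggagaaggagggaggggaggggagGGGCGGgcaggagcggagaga
St8sia4, chr1:95667595-95667844, minus strand: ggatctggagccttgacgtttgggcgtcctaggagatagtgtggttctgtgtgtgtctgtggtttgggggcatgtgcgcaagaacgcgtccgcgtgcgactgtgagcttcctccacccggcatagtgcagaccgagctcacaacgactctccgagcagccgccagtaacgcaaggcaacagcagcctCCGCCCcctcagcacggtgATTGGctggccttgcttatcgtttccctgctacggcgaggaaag

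The Ncam2 window held 2 GC boxes, beginning 50 and 40 bases before the start, and no CCAAT or TATAAA match. St8sia2 held 2 GC boxes and St8sia4 held 1 GC box and 1 CCAAT box. Of the 32851 such windows of all genes, 32.7% held a GC box, 33.8% a CCAAT box and 12.4% a TATAAA match, so none of these matches is rare. The Ncam2 window held 32 CG dinucleotides, St8sia2 15 and St8sia4 19, against a median of 6 and an upper quartile of 16. These counts describe the letters of the reference and not binding or activity.

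The first comparison asked how far the member in 3 copies differed from its level in mice with 2. Ncam2 rose in the Dp3Yah hippocampus. The log2 values of the Dp3Yah mice, replicates 1 to 5, were 9.71, 9.73, 9.97, 9.80 and 9.91. Those of the controls were 9.29, 9.45, 9.21, 9.14 and 9.14. Every Dp3Yah mouse lay above every control, with a gap from 9.45 to 9.71 between the groups, which held for 0.522% of all genes. Means were 9.83 ± 0.115 for Dp3Yah and 9.25 ± 0.130 for controls (log2 scale, ± SD, n = 5 each). The difference was 0.58 on the log2 scale (SE 0.070, 95% interval 0.43 to 0.73, limma adjusted p = 0.0122 over all genes), a level 49.5% above that of the controls. Limma called 0.015% of all genes, 3 in number, and Ncam2 was the only member among them. The other 2, Hspa13 (limma adjusted p = 0.0122) and Mrpl39 (0.00336), lie in the duplicated interval too.

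In linear terms the fold of Ncam2 had a 95% interval of 1.35 to 1.66, which covers the 1.5-fold ratio of 3 copies to 2. The call over all genes was lost in several settings. With the replicate numbers fitted as blocks, the log2 difference was the same and the limma adjusted p was 0.228. With all 35556 probe sets tested, a setting chosen after seeing the data, the log2 difference was the same and the limma adjusted p was 0.0749. With 1 mouse left out in turn the log2 difference ran from 0.54 to 0.63, and the adjusted p from 0.00608 to 0.0714. Ncam2 did not pass without Dp3Yah replicate 4 (limma adjusted p = 0.0538) or 5 (0.0597), or without control replicate 3 (0.0714), 4 (0.0688) or 5 (0.0623). Control replicate 2 was the control closest to the Dp3Yah mice, and without it the adjusted p was 0.00608.

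**Figure D1:**
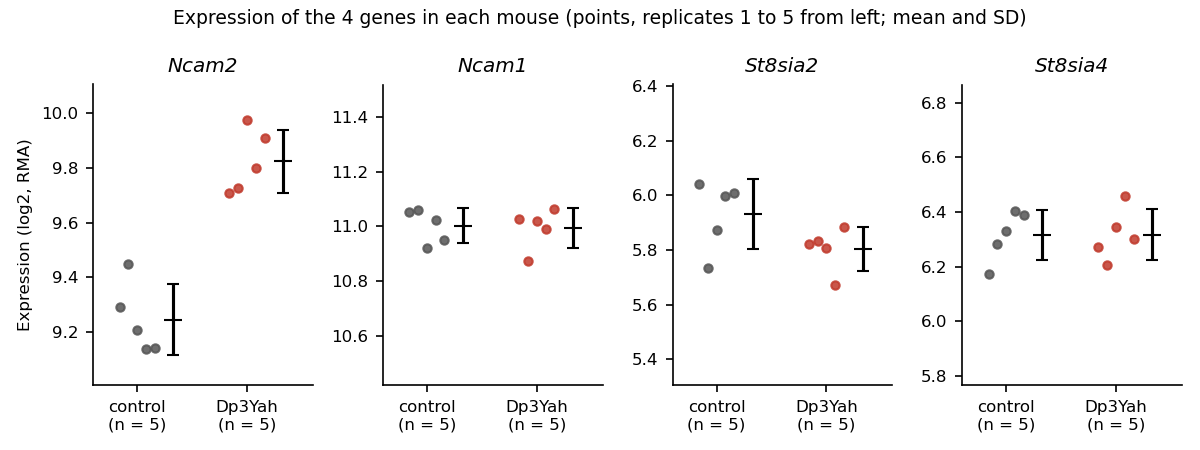
Log2 expression of the 4 genes in each of the 5 control and 5 Dp3Yah mice (points), with the group mean and SD beside them; every panel spans the same range of log2 units. The Dp3Yah mice lie at 9.71 to 9.97 for Ncam2, above the highest control at 9.45, and the groups overlap for Ncam1, St8sia2 and St8sia4.

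Ncam1, the paralogue in 2 copies, was nearly level between the groups. Its log2 values in Dp3Yah replicates 1 to 5 were 11.03, 10.87, 11.02, 10.99 and 11.07, and in the controls 11.05, 11.06, 10.92, 11.02 and 10.95. The ranges overlapped almost wholly, and Dp3Yah replicate 2 was the lowest of the 10. Means were 11.00 ± 0.073 for Dp3Yah and 11.00 ± 0.063 for controls (log2 scale, ± SD, n = 5 each). The log2 difference was -0.01 (SE 0.047, 95% interval -0.11 to 0.09, limma adjusted p = 0.993). Its sign was positive when each array was centred on its median (0.004), with array weights (0.01) and without Dp3Yah replicate 2 (0.02), control replicate 1 (0.01) or control replicate 2 (0.01). The interval corresponds to a change between -7.3% and 6.79%, so a change of Ncam1 as large as that of Ncam2 lies outside it.

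The difference between the adhesion molecules was tested within each array. Ncam2 minus Ncam1 was -1.32, -1.15, -1.05, -1.19 and -1.16 in Dp3Yah replicates 1 to 5. In control replicates 1 to 5 it was -1.76, -1.61, -1.71, -1.89 and -1.81. These differences hold the binding strength of different probes, so only their shift between groups can be read, and by that shift the groups did not overlap. The shift was 0.59 log2 units (95% interval 0.44 to 0.73, two-sided exact permutation p = 0.00794, the smallest that 5 mice against 5 allow, n = 5 per group). Adjusted by Benjamini-Hochberg with the 2 other differences of this kind, the exact permutation p was 0.0238, and with 1 mouse left out the shift ran from 0.55 to 0.62. The shift was larger than the spread between mice.

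Ncam2 was then set against the genes duplicated with it. Of 17 measured interval genes 9 were above the median level of all genes (log2 6.38), and the other 8 of these 9 had log2 differences from 0.28 (Atp5j, a subunit of the ATP synthase) to 0.60 (Hspa13, an Hsp70 relative of the endoplasmic reticulum), with a median of 0.42. Ncam2 had the second largest value of the interval. Of these 8 other genes, 7 also had every Dp3Yah mouse above every control, against 0.522% of all genes. The full separation of Ncam2 was thus shared by most of the genes duplicated with it at such levels. Ncam2 minus the mean of these 8 genes was 0.68 ± 0.125 for Dp3Yah and 0.53 ± 0.120 for controls (log2 scale, ± SD, n = 5 each). The groups overlapped, from 0.55 to 0.83 in Dp3Yah and from 0.44 to 0.74 in control. The shift of 0.15 (95% interval -0.03 to 0.32) was not distinguishable from the spread between mice (two-sided exact permutation p = 0.103, adjusted p = 0.155 over the 3 differences). That outcome depended on control replicate 2, the highest control at 0.74. Without that mouse the shift was larger, 0.20, with an adjusted exact permutation p of 0.0357.

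**Figure D2:**
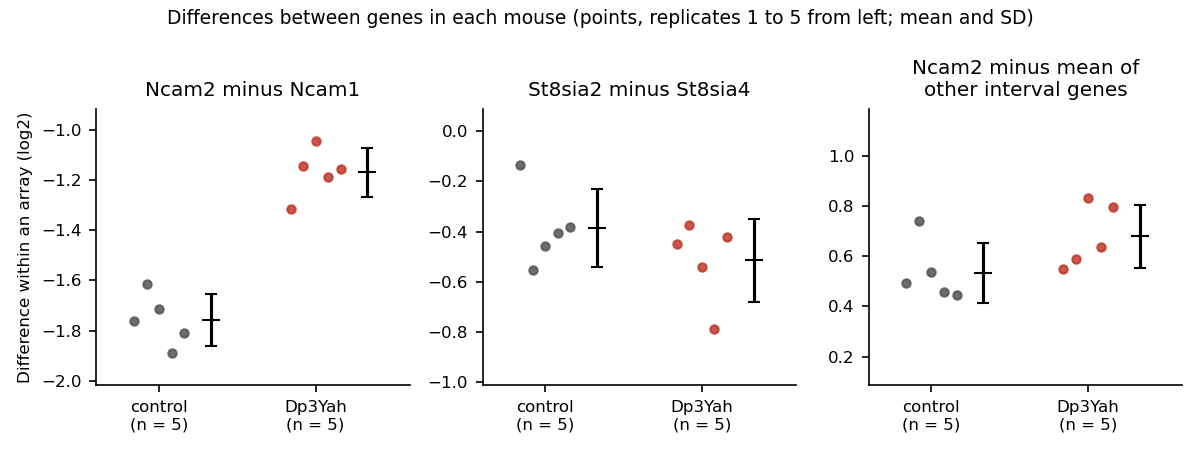
Within-array log2 differences in each control and Dp3Yah mouse (points), with group mean and SD, for Ncam2 minus Ncam1, St8sia2 minus St8sia4 and Ncam2 minus the mean of 8 other interval genes. The groups separate for Ncam2 minus Ncam1, where the highest control is at -1.61 and the lowest Dp3Yah mouse at -1.32, and overlap in the others.

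The next comparison asked whether the polysialyltransferases, in 2 copies, differed between the groups. Both gave signals below the median level of all genes (log2 6.38), St8sia4 only just. Array processing can narrow differences of dim genes, but the SEs of both were not larger than that of Ncam2 (0.070). The effect of signal level was not tested. St8sia2, the embryonic enzyme, had log2 values of 5.82, 5.83, 5.81, 5.67 and 5.88 in Dp3Yah replicates 1 to 5. The controls had 6.04, 5.73, 5.87, 6.00 and 6.01. Of the controls, 3 lay above every Dp3Yah mouse and control replicate 2 lay below all but 1 of them, so the groups overlapped. Means were 5.80 ± 0.079 for Dp3Yah and 5.93 ± 0.128 for controls (log2 scale, ± SD, n = 5 each). The log2 difference was -0.13 (SE 0.062, 95% interval -0.26 to 0.01) and did not pass (limma adjusted p = 0.922). In the rank test of the kind the study used, which put 2.05% of all genes below its lower threshold, St8sia2 was past it (f of 0.022). Without control replicate 2 the log2 difference was -0.18, and the limma adjusted p was still 0.671.

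St8sia4, the enzyme of the adult brain, had log2 values of 6.27, 6.21, 6.35, 6.46 and 6.30 in Dp3Yah replicates 1 to 5 and 6.17, 6.28, 6.33, 6.40 and 6.39 in the controls. The groups covered each other. Means were 6.32 ± 0.094 for Dp3Yah and 6.32 ± 0.093 for controls (log2 scale, ± SD, n = 5 each). The log2 difference was 0.00 (SE 0.057, 95% interval -0.12 to 0.12, limma adjusted p = 0.999), a change between -8.16% and 9.02% in linear terms. With 1 mouse left out it took either sign, from -0.03 to 0.03. St8sia2 minus St8sia4 differed between the groups by -0.13 (95% interval -0.36 to 0.11, two-sided exact permutation p = 0.31, n = 5 per group), so a different response of the enzymes was not detectable with 5 arrays a group.

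Genes that supply, attach or remove sialic acid were examined around the members. None of the 34 measured genes of these and the related glycan lists passed the test over all genes. Gne, which starts sialic acid synthesis, had a log2 difference of 0.02, Nans -0.09, Nanp 0.03 and Cmas, which activates sialic acid to CMP-sialic acid, 0.04. Slc35a1, which carries CMP-sialic acid into the Golgi, had 0.04. Slc17a5, which exports free sialic acid from lysosomes, had the largest positive value of the lists. Its log2 values in Dp3Yah were 8.52, 8.37, 8.34, 8.29 and 8.50, and in control 8.25, 8.16, 8.22, 8.12 and 8.28, so the groups just missed each other. Such a gap, with every Dp3Yah mouse above every control, held for 0.522% of all genes. It held for 1 of the 95 measured genes of the lists around the members. The log2 difference of Slc17a5 was 0.19 (SE 0.054, 95% interval 0.08 to 0.31), with an unadjusted p of 0.00344 and a limma adjusted p of 0.922. At an unadjusted p under 0.05, 2.49% of all genes were higher and 2.59% lower, and of the 6 supply genes 1 was higher and 0 were lower.

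The relatives of the polysialyltransferases make short sialic acid links on glycolipids and glycoproteins. St8sia1, the GD3 synthase, had a log2 difference of -0.02, St8sia3 0.03, St8sia5 -0.01 and St8sia6 0.18 (95% interval -0.04 to 0.39), none past the test. The signs of St8sia1 and St8sia5 turned with array weights, and that of St8sia5 with centring too. Of 14 further sialyltransferases 7 had positive and 7 negative values, with a median of 0.00, and 0 had an unadjusted p under 0.05. St3gal1 had the lowest, -0.25, with an interval of -0.54 to 0.04, and Dp3Yah replicate 2 lay far below the rest at 7.31, against 7.99 to 8.28 in the controls. Without that mouse the value was -0.11, and over the mean of the probe sets of St3gal1 it was -0.13. St6gal1, which caps N-glycans, had 0.11 and St6galnac6 -0.06.

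The sialidases Neu1 (-0.02), Neu2 (-0.09), Neu3 (-0.10) and Neu4 (-0.05), which remove sialic acid, all had negative values, and none passed (lowest limma adjusted p = 0.922). Only Neu1 was above the median level. B3gat1, B3gat2 and Chst10 build the HNK-1 epitope, another glycan of NCAM, and had log2 differences of -0.00, 0.11 and -0.03, with no call. Other proteins that can bear polysialic acid gave 0.04 for the synaptic adhesion molecule Cadm1, 0.09 for the semaphorin receptor Nrp2 and -0.03 for the chemokine receptor Ccr7, again with no call. Array centring and array weights each turned the sign of B3gat1.

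**Figure D3:**
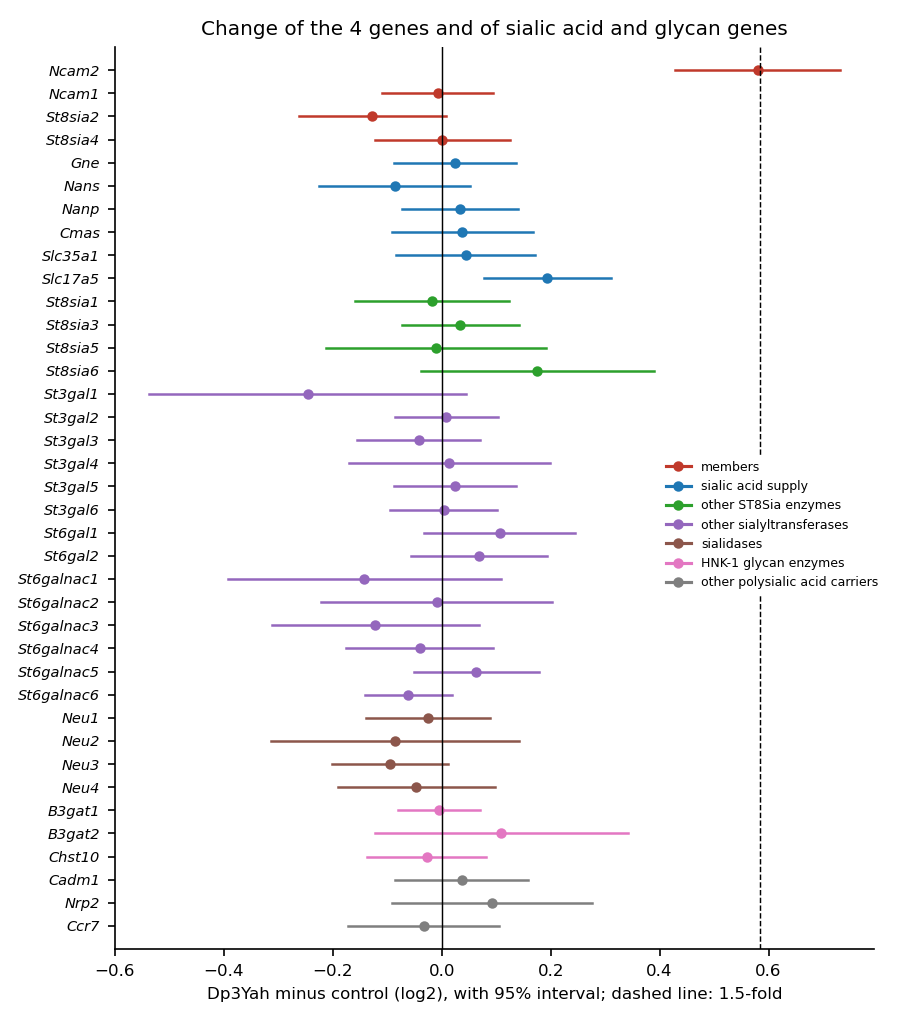
Log2 difference (Dp3Yah minus control, point) with its 95% interval (line) for the 4 genes and 34 genes of sialic acid and NCAM glycans, coloured by list; the dashed line marks 1.5-fold. Ncam2 stands at 0.58, and of the others only Slc17a5, at 0.19, has an interval clear of 0.

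Partners and relatives of NCAM were nearly level too. Over all 95 measured genes of the lists around the members limma called 0, against 0.015% of all genes. At an unadjusted p under 0.05 there was 1 gene, Slc17a5, on the higher side. Of all genes 2.49% were higher and 2.59% lower at that threshold, so 1 of 95 was not above the share of all genes. Of these 95 genes 49 had positive and 46 negative values, and their median log2 difference was 0.00, as over all genes tested (-0.00). Their values ran from -0.25 (St3gal1) to 0.19 (Slc17a5), so that of Ncam2 was outside the range of every relative and partner listed.

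Among 25 other immunoglobulin adhesion molecules 14 had positive values and the median was 0.02. The activated leukocyte cell adhesion molecule Alcam had 0.08, the contactin Cntn5 0.13 and Dscam, the Down syndrome cell adhesion molecule, -0.13. In Dscam, Dp3Yah replicate 2 stood apart at 8.70, and without it the value was -0.02. Of 17 surface and matrix partners 7 had positive values: the neurotrophin Bdnf had -0.14 (95% interval -0.27 to 0.00, unadjusted p = 0.0514), the proteoglycan Bcan 0.10 and the prion protein Prnp, a membrane partner of NCAM1, 0.07. The fibroblast growth factor receptor Fgfr1, through which NCAM1 signals, had -0.02.

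Of 14 measured cytoplasmic partners and signalling genes 10 had positive values, with a median of 0.03. The exchange factor Sos1 had 0.10, the phospholipase Plcg1 0.10 and the kinase Fyn, which is bound to NCAM1, 0.08, with 4 of 5 Dp3Yah mice above every control for Fyn. Of 5 listed proteases that can shed NCAM1 from the surface 1 had a positive value, and the median was -0.02. Those with the lowest p had 0.05 (Adam10), -0.06 (Adam17) and -0.08 (Mmp9). None of these genes passed over all genes in limma.

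The patterns most like each member were sought among genes above the median level, by Pearson's r over the 10 mice after each group's mean was subtracted. For Ncam2 they were Dhdds (r = 0.957), B2m (0.957) and St3gal5 (0.947), out of 9968 genes. For Ncam1 they were St3gal4 (0.949), Dnm2 (0.942) and Faf2 (0.931). St8sia2 varied most like 1700028J19Rik (0.928), Sdhd (0.918) and Echdc2 (0.914), and St8sia4 most like Fbxo34 (0.970), Eef2 (0.965) and Dtna (0.942). Each is the pick of all genes compared, over only 10 arrays that share their normalisation, and they describe these mice alone.

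**Figure D4:**
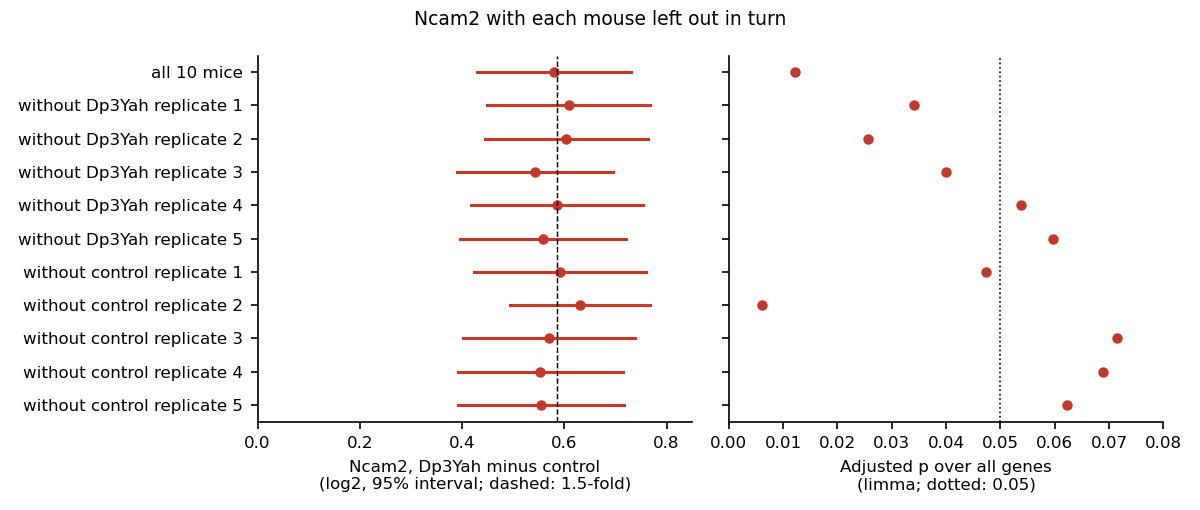
Left, log2 difference of Ncam2 (Dp3Yah minus control) with its 95% interval for all 10 mice and with each mouse left out; right, limma adjusted p over all genes in the same fits. The difference stays between 0.54 and 0.63, while the adjusted p passes 0.05 in 5 of the 10 fits.

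The makeup of the tissue bears on a whole-hippocampus measure, since fewer cells of a type and less RNA per cell cannot be told apart in it. Markers of granule and pyramidal cells were present, with 6 of 6 and 5 of 6 above the median level. Young neurons, which carry polysialic acid, had 4 of 8 markers above the median level: Sox11, Neurod1, Calb2 and Stmn1. Dcx, Igfbpl1, Eomes and Draxin were below it. The mean log2 level of the 8 was 6.93 to 7.18 in Dp3Yah and 6.97 to 7.10 in control. Calb2 varied widely within it, from 8.29 to 9.95 in Dp3Yah and from 8.57 to 9.20 in control. Of the 8 markers 0 had an unadjusted p under 0.05, and the median log2 difference was -0.03. Dcx, which marks migrating neurons, had -0.03 and Sox11 -0.08.

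Markers of other cells differed between the groups in part. All 6 dentate granule markers had negative values (median log2 difference -0.23), 4 of them at an unadjusted p under 0.05 against 2.59% of all genes on that side, among them C1ql2 (-0.24) and Stxbp6 (-0.22). Their mean log2 level was 8.02 to 8.31 in Dp3Yah and 8.25 to 8.46 in control. All 8 microglia markers had positive values (median 0.09), 3 of them at an unadjusted p under 0.05 against 2.49% of all genes on that side, among them Ctss (0.19) and Itgam (0.15). Their mean log2 level was 7.75 to 7.97 in Dp3Yah and 7.66 to 7.75 in control. These ranges all but met, with the lowest Dp3Yah mouse at 7.753 and the highest control at 7.751. The markers were chosen with earlier results of these data known, and markers of the same cell type may vary together within a mouse. The counts of 4 granule and 3 microglia markers describe these lists, and the shares of all genes are no test of them. Choroid plexus markers varied widely in both groups, from 6.20 to 8.07 and from 6.13 to 8.17 in mean log2 level. Oligodendrocyte precursors, which also bear polysialic acid, gave 7.02 to 7.17 and 6.97 to 7.16. The median log2 difference was 0.09 for pyramidal cell markers, 0.07 for astrocytes, -0.05 for interneurons, -0.00 for oligodendrocytes and -0.04 for endothelial cells. It was -0.05 for neocortex and subiculum and -0.09 for thalamus, and 0 markers of these 7 lists had an unadjusted p under 0.05. Thalamus markers too varied widely between mice, from 7.49 to 8.32 in Dp3Yah and from 7.45 to 8.62 in control in mean log2 level. For neocortex and subiculum the mean levels were 7.18 to 7.96 and 7.62 to 8.03. No marker passed over all genes, and the part of these cells in the values of the 4 genes was not tested.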

How the data were processed

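Hippocampal RNA of 10 mice, 5 per group, was measured on Affymetrix Gene 1.0 ST arrays for mouse. The deposited values are log2 expression per probe set, made by the authors with RMA, which corrects background, brings arrays to a common distribution and summarises probes and so narrows differences of dim genes. The submitters' processing notes also name limma and mm10, with no versions. Of 35556 probe sets, the platform annotation gave 21789 to 1 gene and 1621 to several, and 12146 were unnamed here. Each of 19938 genes was represented by its brightest probe set, a choice that mattered for 999 genes. RefSeq GRCm38.p6 held 19856 of the genes and gave the coordinates and promoter sequences.

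The groups were fitted with limma 3.58.1 under R 4.3.3, by lmFit and eBayes without covariates. A gene was called at a two-sided p under 0.05 after Benjamini-Hochberg adjustment across the genes. Within-array differences were compared by exact permutation of the group labels. The rank test was rewritten from the principle of FCROS, with f under 0.025 or over 0.975 as thresholds. Intervals are at 95%, and the number of arrays limits the precision. The fitting script was tested on simulated data. Array medians were 5.64 to 5.71, no pair of arrays was identical, and Dp3Yah replicate 2 stood farthest from the others. The files hold no scan or batch record.

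The 4 genes, the gene lists and the markers were chosen with earlier results of these data known. Genes named were all members, every gene of the sialic acid supply, ST8Sia, sialidase, HNK-1 and carrier lists, up to 4 genes with the lowest p of each further list, up to 3 of each marker list, the interval genes above the median level and the 3 genes most like each member. Fgfr1 was added after its value was seen. Alternatives were the replicate block, other probe set rules, a level filter, loess, centring, other variance models, array weights, the rank test and leaving out each mouse.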

Additional observations from a re-analysis of the deposited data

Results flagged for a closer look

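The check covered the 4 members, the 35 named genes of the lists around them and the within-array differences. In these, 84 groups of 5 mice were checked for a mouse far from the rest of its group. Chance alone gives such a mouse in about 1 in 20 groups. It was found in 2. The log2 value of the sheddase Adam10 in Dp3Yah replicate 4 was 9.30 (9.299), and without that mouse the log2 difference of Adam10 was 0.02 in place of 0.05. The log2 value of Dscam in Dp3Yah replicate 2 was 8.70 (8.699). None of the 4 members had such a mouse.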

How the results depend on the processing

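Ncam2 kept its direction in every setting run, with a log2 difference of 0.57 to 0.59 with all 10 mice and 0.54 to 0.63 with 1 left out, and 5 of 10 such fits passed. It did not pass with a replicate block (0.58, limma adjusted p = 0.228) or when all 35556 probe sets were tested, a setting chosen after seeing the data (0.58, adjusted p = 0.0749). Whether the numbers pair littermates is not given. Deviations of same-numbered mice correlated at 0.04, -0.36, 0.07, 0.20 and 0.32, and only replicates 4 and 5 matched their own number best. Such correlations cannot settle it, since littermates need not vary alike. With the replicate block, Ncam2 minus Ncam1 was 0.59 with an exact sign-flip p of 0.0625, the smallest that 32 assignments allow (adjusted 0.188). The genes called by limma numbered 3, against 1 with all probe sets, 6 with trended and robust variance, 5 with array weights and 1 to 4 with a mouse left out, and the rank test called 914.

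Ncam1 turned positive on centring (0.0036) and array weights (0.0136) and ran from -0.028 to 0.0232 with a mouse left out. St8sia4 ran from -0.0347 to 0.0286. Of the settings run for it, St8sia2 passed in the rank test alone (-0.13) and ran from -0.18 to -0.09. Ncam2 minus the interval genes ran from 0.11 to 0.20, past the threshold without control replicate 2, and St8sia2 minus St8sia4 from -0.17 to -0.06. Centring gave B3gat1 0.006 and St8sia5 0.0004. Array weights gave B3gat1 0.0007, St8sia1 0.0052 and St8sia5 0.0283. With a mouse left out, values ran from -0.0149 to 0.0088 for B3gat1, -0.0771 to 0.0082 for Ccr7, -0.0501 to 0.0071 for Chst10, -0.0018 to 0.0791 for Cmas, -0.0019 to 0.049 for Gne, -0.0561 to 0.0092 for Neu1, -0.1423 to 0.0093 for Neu2, -0.0861 to 0.0084 for Neu4, -0.0635 to 0.0239 for St8sia1 and -0.0563 to 0.0662 for St8sia5. None of the 35 named genes of the lists passed in any limma setting, but the rank test put Slc17a5 (f = 0.994), St8sia6 (0.978), Cntn5 (0.978) and St3gal1 (0.0156) past its thresholds. That test called 914 of all 19938 genes, and some of the 35 were named because they had the lowest p of their list. The cause of these shifts was not tested. With 5 mice a group, small changes of St8sia2 and St8sia4 were not detectable.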
